A study of Homo sapiens with 12 samples.

Results

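Macroautophagy encloses cytoplasmic material in a double membrane, the autophagosome, which then fuses with the lysosome. The ULK1 kinase complex starts the process, a lipid kinase complex around BECN1 and the WIPI proteins build the membrane, and the ATG conjugation enzymes attach ubiquitin-like proteins of the Atg8 family (LC3 and GABARAP proteins) to it. Cargo adaptors such as SQSTM1 (p62) tie ubiquitinated cargo to the Atg8 proteins, and the acid hydrolases of the lysosome degrade what is delivered. Transcription factors of the MiT family (TFEB, TFE3, MITF) bind the CLEAR element, which lies in the promoters of many lysosomal genes.

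The genes described here are 38 genes of this route, chosen by name. They were taken by their symbol in the platform annotation, which assigned them 62 of the 47323 probes on the array. A probe was kept where it was detected (detection p-value under 0.01 against the array's negative control beads) in at least 2 of the 12 arrays. This held for 52 of the 62 probes and left 36 of the 38 genes in the test, among 11423 genes tested in all. The cargo adaptor NBR1 had 2 probes, neither detected in more than 1 array, and the only probe of TFEB was detected in 0 arrays, so neither gene has a value. MITF was detected in 0 of the 4 DBTRG arrays and CTSZ in 0 of the 8 U87 arrays; each passed the filter through the other line and gives no measured change in the line where it was undetected.

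The samples were DBTRG and U87, 2 established human glioblastoma lines, with 2 arrays in each of 6 groups. DBTRG cells were untreated or received 10 µM Y15. U87 cells were untreated or received temozolomide (TMZ), 10 µM Y15 or TMZ with Y15, and treatment lasted 24 h. Y15 inhibits focal adhesion kinase, an adhesion-site tyrosine kinase, and TMZ is a drug that alkylates DNA. The dose of TMZ reads 20 µM in the sample titles and 100 µM in the design text, and it was not settled here. Whether the replicates of a group came from separate cultures is not stated in the labels, and p-values therefore reflect the spread of arrays only, which may be technical. The extraction protocol speaks of frozen tissue although every sample is labelled a cell line. Comparisons asked how Y15, TMZ and both changed the genes, and how far the lines differed.

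Between 14437 and 16889 probes were detected per array. The fewest were in replicate 1 of U87 given Y15 alone, whose replicate 2 had 15169. Replicate 1 of untreated DBTRG had 15001. Across genes, Pearson's r between replicates was 0.986 to 0.995. Of 8 glial and glioma markers, VIM, NES and CD44 were detected in all 12 arrays, while GFAP and S100B were detected in 0. Of the 6 tested, 4 fell and 0 rose in DBTRG with Y15 (median log2 change -0.54), and 2 fell and 1 rose in U87 with Y15. By the same test (limma adjusted p under 0.05), 19.4% of all genes rose and 18.4% fell in DBTRG with Y15. In U87 with Y15 8.61% of all genes rose and 13.4% fell. Of 9 microglia and macrophage markers, 5 were detected in 0 arrays, among them PTPRC, ITGAM and TYROBP. The 4 tested ones were CD68, detected in all 12 arrays, CD14 (9 arrays), CSF1R (8 arrays) and AIF1 (6 arrays). Their group means were 5.59 to 8.11 on the log2 scale. In DBTRG given Y15, 2 of those 4 rose and 0 fell, and in U87 given Y15 1 rose and 1 fell; their part in the results was not tested. Of 6 lymphocyte markers 2 were tested (group means 4.81 to 5.86), of which 2 rose in DBTRG and 1 in U87 with Y15. Fewer cells that express a gene and less RNA per cell cannot be told apart in such bulk samples.

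Promoters were read for 33 of the 38 genes, as the 250 bases before the annotated start (RefSeq, GRCh38.p14). The 7 sequences shown set 3 genes that rose in both lines beside 4 lysosomal genes whose promoters carry a CLEAR core. Capitals mark the motifs found by a search of both strands. The motifs were the CLEAR core TCACGTGA, the E-box CACGTG that lies inside it, the antioxidant response core TGACNNNGC, the CARE core TTGCATCA, and the cAMP response element TGACGTCA, which was added after the sequences had been seen. Each sequence runs 5′ to 3′ on the gene's own strand and ends at the base before the start.
SQSTM1 (chr5:179806143-179806392, + strand): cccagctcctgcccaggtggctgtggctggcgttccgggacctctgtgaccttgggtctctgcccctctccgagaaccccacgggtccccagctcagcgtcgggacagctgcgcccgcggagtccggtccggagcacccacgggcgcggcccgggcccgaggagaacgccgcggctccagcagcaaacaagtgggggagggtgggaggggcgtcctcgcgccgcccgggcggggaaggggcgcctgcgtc
MAP1LC3B (chr16:87392086-87392335, + strand): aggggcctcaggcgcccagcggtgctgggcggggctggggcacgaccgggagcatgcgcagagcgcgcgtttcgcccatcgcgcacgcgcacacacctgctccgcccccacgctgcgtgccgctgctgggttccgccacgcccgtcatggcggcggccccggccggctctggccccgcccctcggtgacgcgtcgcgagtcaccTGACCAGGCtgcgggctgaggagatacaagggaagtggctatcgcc
GABARAPL1 (chr12:10212627-10212876, + strand): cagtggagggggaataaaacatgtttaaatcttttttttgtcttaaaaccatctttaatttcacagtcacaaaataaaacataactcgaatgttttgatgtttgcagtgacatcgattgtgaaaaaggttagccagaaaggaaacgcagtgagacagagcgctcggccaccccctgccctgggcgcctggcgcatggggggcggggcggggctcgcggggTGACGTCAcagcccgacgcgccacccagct
ATP6V0D1 (chr16:67481158-67481407, - strand): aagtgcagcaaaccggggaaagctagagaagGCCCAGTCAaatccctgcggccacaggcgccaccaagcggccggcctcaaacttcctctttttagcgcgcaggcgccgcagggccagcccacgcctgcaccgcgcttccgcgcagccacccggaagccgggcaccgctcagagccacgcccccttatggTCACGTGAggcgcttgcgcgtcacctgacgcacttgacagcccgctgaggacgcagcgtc
LAMP1 (chr13:113296989-113297238, + strand): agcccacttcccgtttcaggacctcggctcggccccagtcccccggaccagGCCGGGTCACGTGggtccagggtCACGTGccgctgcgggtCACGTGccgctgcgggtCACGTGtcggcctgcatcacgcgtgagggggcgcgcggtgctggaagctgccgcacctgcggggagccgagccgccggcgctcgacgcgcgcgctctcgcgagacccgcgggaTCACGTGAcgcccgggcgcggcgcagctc
MCOLN1 (chr19:7522374-7522623, + strand): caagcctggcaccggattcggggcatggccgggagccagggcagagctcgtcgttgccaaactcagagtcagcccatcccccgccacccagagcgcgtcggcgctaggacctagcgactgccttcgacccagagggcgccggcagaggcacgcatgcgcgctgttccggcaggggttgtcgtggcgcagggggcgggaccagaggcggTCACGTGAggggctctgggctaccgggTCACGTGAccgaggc
CTSA (chr20:45891085-45891334, + strand): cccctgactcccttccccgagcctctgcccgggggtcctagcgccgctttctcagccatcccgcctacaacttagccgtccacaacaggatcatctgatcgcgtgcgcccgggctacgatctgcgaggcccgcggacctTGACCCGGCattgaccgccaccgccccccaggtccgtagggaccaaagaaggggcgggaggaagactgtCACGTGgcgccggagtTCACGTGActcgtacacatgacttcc

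The CLEAR core lay in 0.89% of the 27305 promoters of the table and in 4 of the 33 promoters read here (ATP6V0D1, LAMP1, MCOLN1 and CTSA). MCOLN1 held 2 copies, at 42 to 35 and at 15 to 8 bases before the start. The E-box lay in 6.49% of all promoters and in 7 of the 33, those of ATG3, ATG14 and CTSD besides the 4 with the CLEAR core, and LAMP1 held 5 copies. The antioxidant response core lay in 11.0% of all and in 7 of the 33, among them MAP1LC3B at 46 to 38 bases before the start. The cAMP response element lay in 1.77% of all and in 1 of the 33, GABARAPL1, at 30 to 23 bases before the start. The CARE core lay in 0.82% of all and in 0 of the 33. None of the 5 motifs was in the SQSTM1 window.

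In DBTRG cells Y15 raised autophagy genes at several steps of the route while most lysosomal hydrolases did not pass the test. The largest rises were those of the cargo adaptor SQSTM1 (3.08-fold), the Atg8 protein gene MAP1LC3B (2.86-fold), the phosphoinositide-binding WIPI1 (2.66-fold), the cholesterol exporter NPC1 (2.42-fold) and the Atg8 protein gene GABARAPL1 (2.27-fold). Of the 36 tested genes 17 rose and 1 fell, at a Benjamini-Hochberg adjusted p under 0.05 by limma. Over all 11423 genes 37.8% were called, 19.4% higher and 18.4% lower, against 47.2% higher and 2.78% lower among the 36. Their median log2 change was 0.36, beside 0.01 for all genes.

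**Figure D1:**
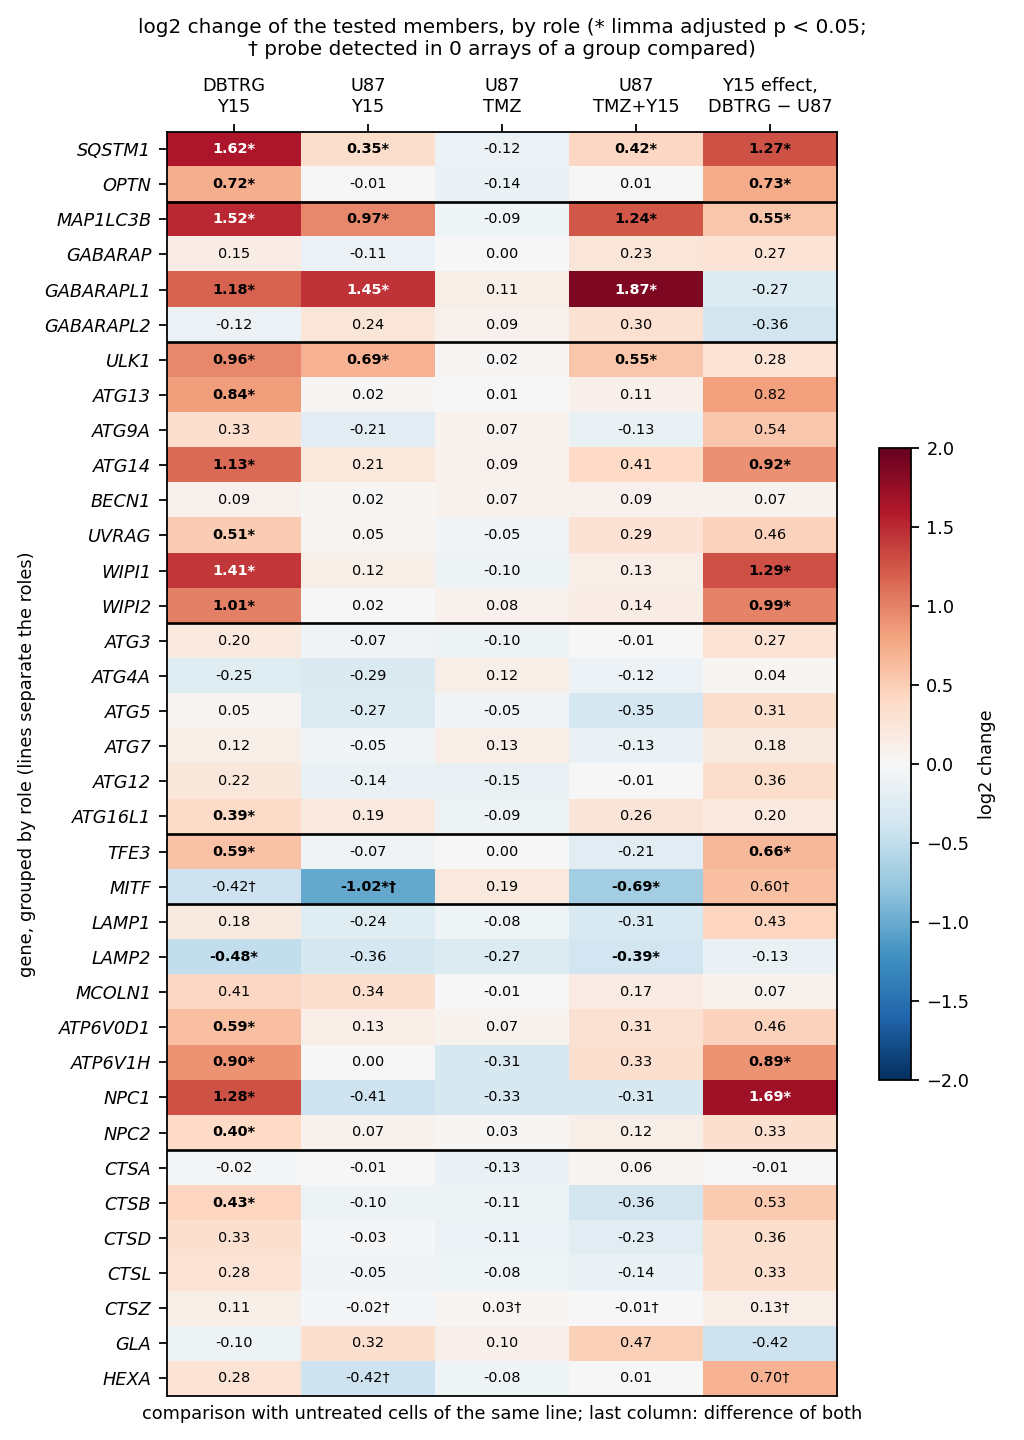
Log2 change of each of the 36 tested genes (rows, grouped by role) for Y15, TMZ and the combination against untreated cells of the same line, and for the Y15 effect in DBTRG minus that in U87. An asterisk marks a limma adjusted p under 0.05 and a dagger a probe detected in 0 arrays of a group compared, whose number is no measured change; the DBTRG column holds 17 rises and 1 fall, and the TMZ column holds 0 calls.

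Cargo adaptors link ubiquitinated proteins to the growing membrane. SQSTM1 had a normalized log2 signal of 11.56 and 11.64 in untreated DBTRG and of 13.21 and 13.23 with Y15. The groups lay far apart relative to the spread of replicates, a log2 change of 1.62 ± 0.10 (SE; 2 arrays a group; limma adjusted p = 2.15e-06). OPTN, a receptor for ubiquitinated mitochondria and bacteria, read 7.13 and 7.18 untreated and 7.78 and 7.97 with Y15, again without overlap (0.72 ± 0.13, limma adjusted p = 0.00126).

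Among the Atg8 genes MAP1LC3B and GABARAPL1 rose, and GABARAP and GABARAPL2 did not pass the test. MAP1LC3B encodes LC3B, the protein most used as a marker of autophagosomes, and its signal went from 9.39 and 9.14 to 10.76 and 10.81 (1.52 ± 0.12, limma adjusted p = 7.82e-06). GABARAPL1, whose product also takes part in autophagosome formation and closure, went from 9.24 and 9.30 to 10.61 and 10.28 (1.18 ± 0.13, adjusted p = 6.6e-05). All Y15 arrays lay above all untreated arrays for both genes. GABARAP gave 0.15 ± 0.27 (adjusted p = 0.694), with overlapping groups and detection in only 1 of 2 untreated arrays, and GABARAPL2 gave -0.12 ± 0.12 (adjusted p = 0.485).

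Of the 8 genes of initiation and membrane nucleation 6 rose and 0 fell (median 0.90 on the log2 scale). WIPI1, which binds the lipid made at the forming autophagosome, read 6.93 and 7.02 untreated and 8.28 and 8.49 with Y15 (1.41 ± 0.12, limma adjusted p = 1.43e-05). ATG14, the subunit that directs the BECN1 lipid kinase complex to autophagy, read 5.77 and 6.12 untreated and 7.21 and 6.94 with Y15 (1.13 ± 0.18, adjusted p = 0.000762). Both genes were separated between the groups. WIPI2, which recruits the ATG16L1 complex to the membrane, went from 6.90 and 6.68 to 7.70 and 7.90 (1.01 ± 0.13, adjusted p = 0.000225). The initiating kinase gene ULK1 went from 8.74 and 8.81 to 9.55 and 9.93 (0.96 ± 0.14, adjusted p = 0.000354), and its second probe gave 1.07. ATG13, a partner of ULK1, changed by 0.84 ± 0.22 and UVRAG, the subunit of the BECN1 complex in endosome and late autophagosome traffic, by 0.51 ± 0.14 (0.14 and not called by its second probe). BECN1 itself (0.09 ± 0.11) and ATG9A, the membrane scramblase that seeds autophagosomes (0.33 ± 0.15), did not pass the test (adjusted p = 0.551 and 0.122).

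Of the 6 conjugation genes only ATG16L1, which sets where Atg8 proteins are attached, was called (0.39 ± 0.11, limma adjusted p = 0.0168). Its second probe, at 0.30, was not called (limma adjusted p over probes = 0.159). The E2-like enzyme ATG3 gave 0.20 ± 0.14, the protease ATG4A -0.25 ± 0.13, ATG5 0.05 ± 0.18, the E1-like enzyme ATG7 0.12 ± 0.16 and the ubiquitin-like ATG12 0.22 ± 0.10, with adjusted p of 0.125 to 0.866.

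Of the MiT factors TFE3 rose, from 5.91 and 5.86 to 6.48 and 6.47 (0.59 ± 0.13, limma adjusted p = 0.0049). No change is given for MITF in that line.

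At the lysosomal membrane 4 of 7 genes rose and 1 fell. NPC1, which exports cholesterol from the lysosome, went from 8.58 and 8.93 to 10.00 and 10.06 (1.28 ± 0.15, limma adjusted p = 0.000127). Its luminal partner NPC2 changed by 0.40 ± 0.12. Subunits of the V-ATPase, the pump that acidifies the lysosome, rose as well, ATP6V1H by 0.90 ± 0.15 (from 9.18 and 9.09 to 10.03 and 10.02; its second probe, at 0.32, was not called) and ATP6V0D1 by 0.59 ± 0.13. The calcium channel gene MCOLN1 (0.41 ± 0.15, adjusted p = 0.06) and LAMP1, an abundant membrane glycoprotein (0.18 ± 0.11, adjusted p = 0.205), did not pass. LAMP2, a related glycoprotein needed for fusion with autophagosomes, fell by 0.48 (SE 0.12, adjusted p = 0.00994), from 10.63 and 10.71 to 10.27 and 10.11. LAMP2 had 6 kept probes, of which 3 fell and 3 were not called, with changes between -0.48 and 0.15. Of the 3 probes annotated to the B isoform 2 fell, while neither of the 2 annotated to the A isoform was called.

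Of the 7 lysosomal enzymes 1 was called, the cysteine protease gene CTSB (0.43 ± 0.15, limma adjusted p = 0.041). The second probe of CTSB, at 0.43, was not called (limma adjusted p over probes = 0.0806). CTSD, the main aspartic protease of the lysosome, read 9.96 and 9.30 untreated and 9.84 and 10.08 with Y15, and the groups overlapped (0.33 ± 0.19, adjusted p = 0.199). The cysteine protease CTSL gave 0.28 ± 0.15, the carboxypeptidase CTSZ 0.11 ± 0.13, the protective protein gene CTSA -0.02 ± 0.13, the α-galactosidase GLA -0.10 ± 0.16 and the hexosaminidase subunit HEXA 0.28 ± 0.18 (adjusted p = 0.173 to 0.905). Of the 4 genes whose promoters held a CLEAR core, ATP6V0D1 rose, and LAMP1, MCOLN1 and CTSA did not pass the test.

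**Figure D2:**
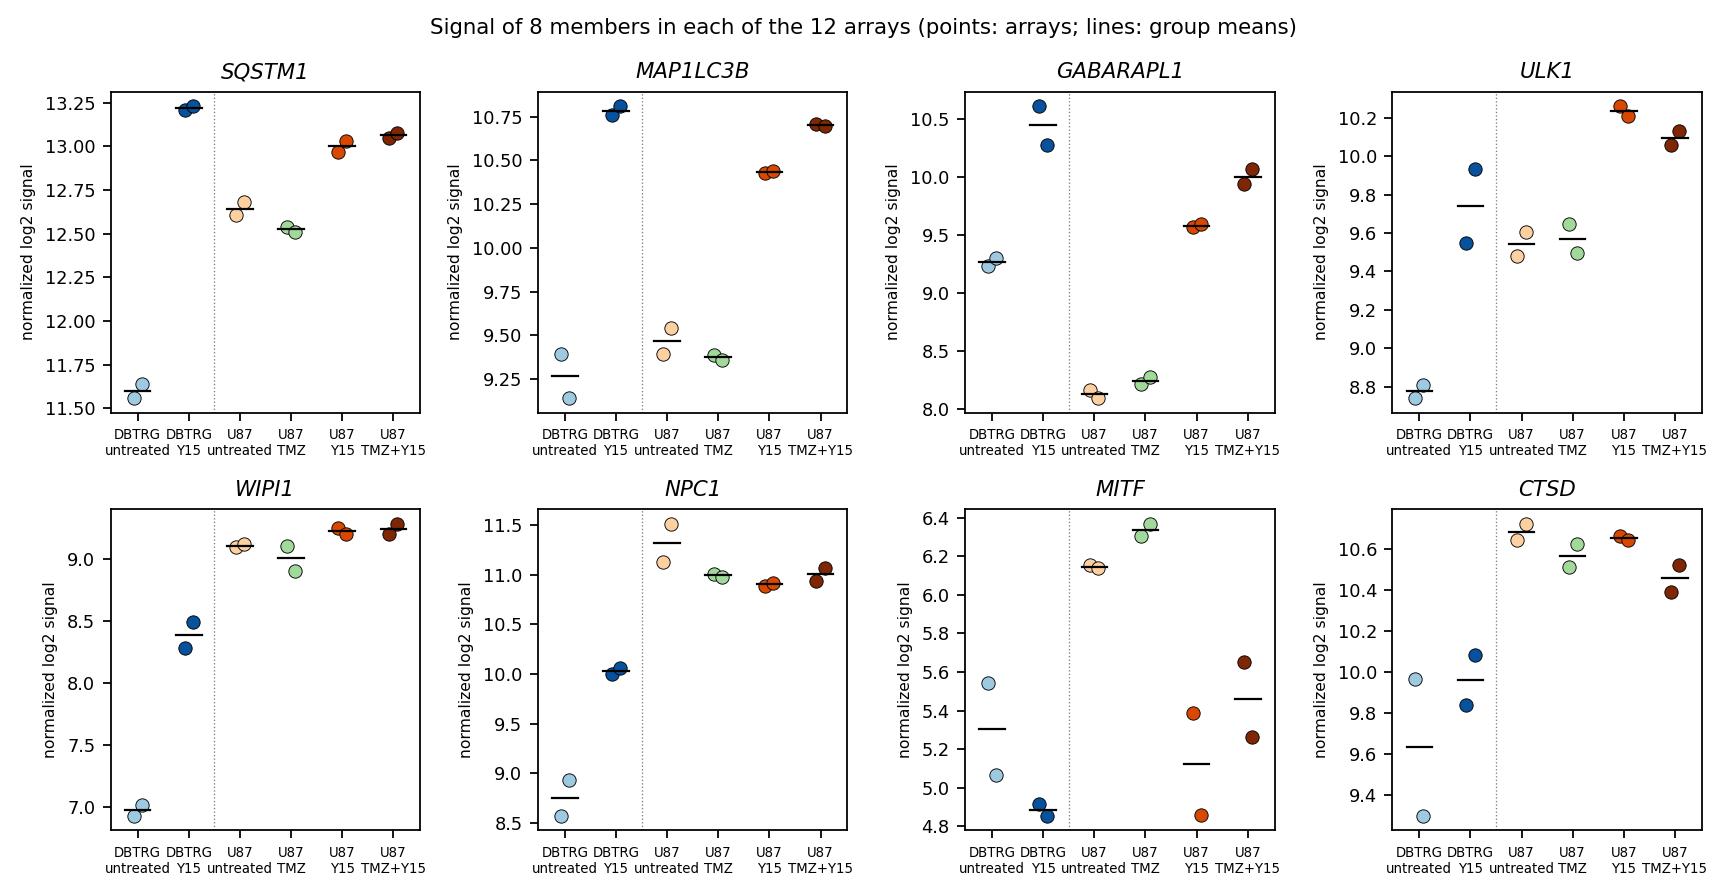
Normalized log2 signal (y axis) of 8 genes in each of the 12 arrays (points), by group (x axis), with group means as lines. SQSTM1, MAP1LC3B, GABARAPL1 and ULK1 are higher with Y15 in both lines, WIPI1 and NPC1 in DBTRG, MITF is lower with Y15 in U87, and CTSD overlaps between Y15 and untreated arrays in both lines.

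Some of the DBTRG calls rested on single arrays. Without replicate 1 of the untreated cells the calls of ATG13 (limma adjusted p = 0.082), ATG16L1 (0.0627), NPC2 (0.0917) and CTSB (0.205) were lost, and CTSD was called (0.66, adjusted p = 0.00959). Without their replicate 2 the calls of LAMP2 (0.0525), UVRAG (0.0648), ATG16L1 (0.0553) and NPC2 (0.053) were lost. Without replicate 1 of the Y15 arrays NPC2 (0.0932) was lost and ATG9A (0.0255) and MCOLN1 (0.0377) were called, and without replicate 2 ATG13 (0.0747), UVRAG (0.0829) and CTSB (0.255) were lost. CTSB was also lost without any 1 of the 8 U87 arrays (0.0524 to 0.0591). Each of these 6 calls was also lost under 1 or more of the other alternatives (adjusted p of 0.0539 to 0.266). The other 12 calls held in every alternative run.

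In U87 cells Y15 raised the same 4 genes of the early route that it raised in DBTRG, SQSTM1, MAP1LC3B, GABARAPL1 and ULK1, and it lowered MITF. GABARAPL1 rose most (2.73-fold), then MAP1LC3B (1.95-fold), ULK1 (1.61-fold) and SQSTM1 (1.28-fold). With 5 of 36 genes called (13.9%), the share lay below that of all genes, of which 22.0% were called, 8.61% higher and 13.4% lower. Of the 36, 11.1% rose, near the share of all genes, and 2.78% fell. The median log2 change of the 36 genes was -0.01 and that of all genes -0.07. No gene of the list was called in opposite directions in the 2 lines.

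GABARAPL1 read 8.17 and 8.09 in untreated U87 and 9.57 and 9.59 with Y15 (1.45 ± 0.13, limma adjusted p = 5.43e-05). MAP1LC3B went from 9.39 and 9.54 to 10.43 and 10.44 (0.97 ± 0.12, adjusted p = 0.000336). ULK1 went from 9.48 and 9.61 to 10.26 and 10.21 (0.69 ± 0.14, adjusted p = 0.00586), and its second probe gave 0.66. The treated and untreated arrays did not overlap for any of the 3 genes. SQSTM1 moved from 12.61 and 12.68 to 12.97 and 13.03 (0.35 ± 0.10, adjusted p = 0.031). That call was lost without any 1 of the 4 arrays compared, with adjusted p of 0.154 and 0.0925 without untreated replicates 1 and 2 and of 0.0983 and 0.153 without Y15 replicates 1 and 2, and of 0.0599 when only those 4 arrays were fitted. ULK1 was no longer called without replicate 1 of the untreated cells (adjusted p = 0.0508).

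MITF encodes a MiT factor best known from pigment cells. It read 6.15 and 6.14 in untreated U87 and was detected in 0 of the 2 Y15 arrays (5.39 and 4.86), at least 1.47-fold lower (limma adjusted p = 0.00576). The MITF values rest on a single probe, because the other MITF probes were detected in 0 arrays. TFE3 did not pass the test (-0.07 ± 0.13, adjusted p = 0.75).

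The genes of initiation and nucleation other than ULK1 gave changes between -0.21 and 0.21 in U87, with 0 called by limma. WIPI1, at 9.10 and 9.13 untreated and 9.26 and 9.20 with Y15, gave 0.12 ± 0.12 (limma adjusted p = 0.527). ATG13 gave 0.02 ± 0.22, ATG9A -0.21 ± 0.15, ATG14 0.21 ± 0.18, BECN1 0.02 ± 0.11, UVRAG 0.05 ± 0.14 and WIPI2 0.02 ± 0.13 (adjusted p = 0.363 to 0.968). The 6 conjugation genes gave changes of -0.29 (ATG4A) to 0.19 (ATG16L1), with 0 called by limma, although a second ATG4A probe was called lower (-0.52, adjusted p over probes = 0.0162). In between lay ATG5 (-0.27 ± 0.18), ATG12 (-0.14 ± 0.10), ATG3 (-0.07 ± 0.14) and ATG7 (-0.05 ± 0.16). OPTN (-0.01 ± 0.13), GABARAP (-0.11 ± 0.27) and GABARAPL2 (0.24 ± 0.12) did not pass either.

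Of the 14 tested lysosomal membrane and enzyme genes 13 were detected in U87, and 0 of them were called with Y15 by limma, with 4 (LAMP1, LAMP2, NPC1 and HEXA) at an unadjusted p under 0.05. NPC1, which had risen in DBTRG, read 11.13 and 11.51 untreated and 10.89 and 10.92 with Y15 (-0.41 ± 0.15, limma adjusted p = 0.0795). LAMP2 gave -0.36 ± 0.12 (adjusted p = 0.06), and 2 of its 6 probes fell. LAMP1 gave -0.24 ± 0.11, MCOLN1 0.34 ± 0.15, ATP6V0D1 0.13 ± 0.13, ATP6V1H 0.00 ± 0.15 and NPC2 0.07 ± 0.12 (adjusted p = 0.132 to 0.998). Without untreated replicate 1, NPC1 was called (adjusted p = 0.0494). Among the enzymes CTSA (-0.01 ± 0.13), CTSD (-0.03 ± 0.19), CTSL (-0.05 ± 0.15) and CTSB (-0.10 ± 0.15) did not pass the test, but a second CTSB probe was called lower (-0.60, adjusted p over probes = 0.0361). GLA gave 0.32 ± 0.16 (adjusted p = 0.185). HEXA was detected in 0 of the 2 Y15 arrays and in both untreated ones, and was at least 1.07-fold lower and not called (adjusted p = 0.12).

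The scaling of the arrays set the direction of many genes in this comparison. Quantile normalization sets all arrays to 1 distribution, whereas centring each array on the median of all its probes brought the median change of all 11423 genes to -0.60. On that scale 24 of the 36 genes were called lower and 1 higher, GABARAPL1. This count was not set beside the share of all genes called on that scale, so it does not set the 36 genes apart. Relative to the median of all genes on that scale, GABARAPL1 lay at 1.38, MAP1LC3B at 0.94, SQSTM1 at 0.69 and ULK1 at 0.65. Centring on the median of the kept probes instead, an alternative chosen after seeing the data, gave a median of 0.01 for all genes, 5 calls higher and 1 lower; the fifth rise was that of CTSZ, which no U87 array detected.

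**Figure D3:**
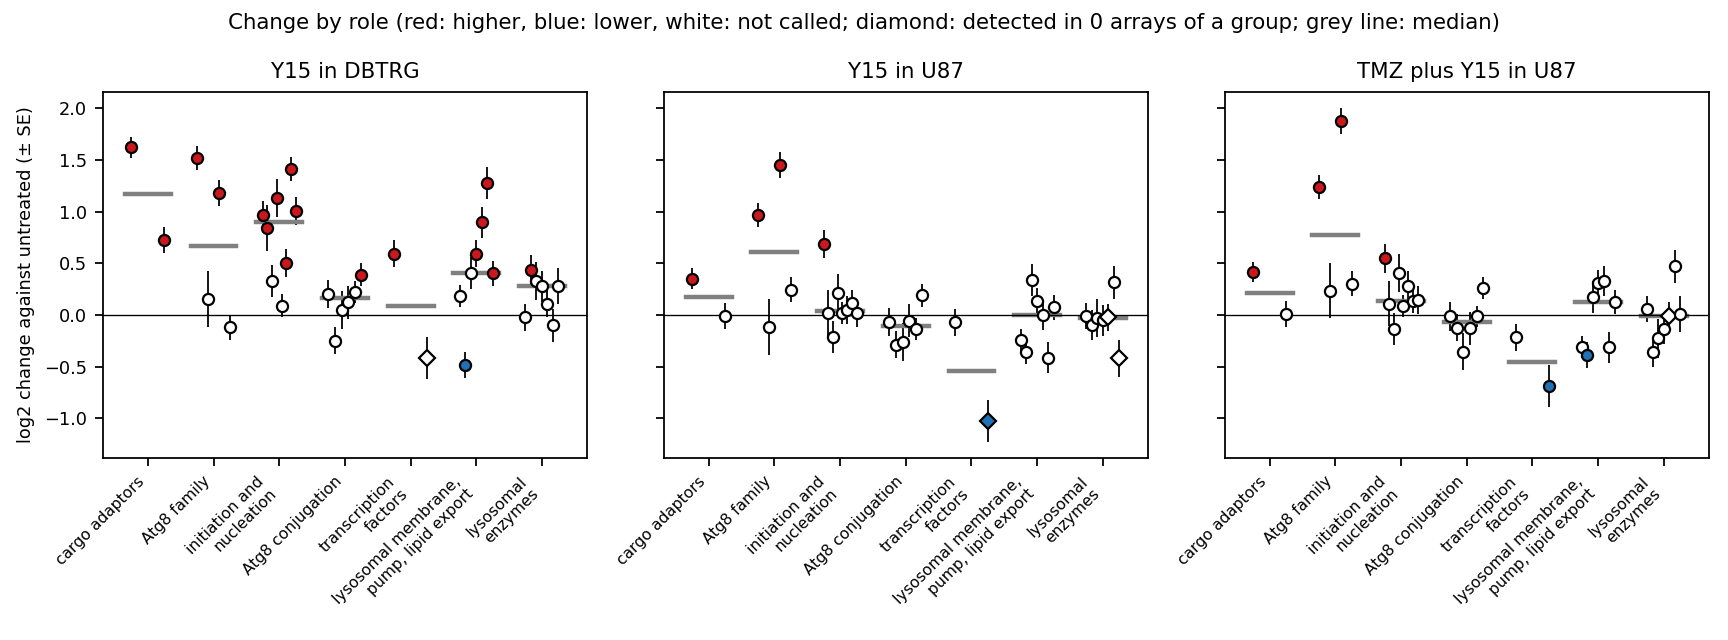
Log2 change ± SE (y axis) of each tested gene against untreated cells, by role (x axis), for Y15 in DBTRG, Y15 in U87 and TMZ plus Y15 in U87. Red points were called higher, blue lower and white points were not called, diamonds mark probes detected in 0 arrays of a group compared; grey lines are medians, which for initiation and nucleation lie at 0.90, 0.03 and 0.14.

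TMZ alone changed none of the 36 genes by limma (0 called, and 1 at an unadjusted p under 0.05), where 0.00875% of all genes, 1 gene, were called. The log2 changes ran from -0.33 to 0.19, and the 95% intervals lay within -0.67 and 0.64. SQSTM1 read 12.54 and 12.51, MAP1LC3B 9.39 and 9.36 and GABARAPL1 8.22 and 8.27, beside the untreated values of 12.61 and 12.68, 9.39 and 9.54, and 8.17 and 8.09. ULK1 read 9.65 and 9.49 and MITF 6.30 and 6.37.

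Given together, TMZ and Y15 raised the same 4 genes and lowered MITF, against untreated U87. LAMP2 was called lower by the probe used for it. In the test over probes, 1 of its 6 kept probes fell and 5 were not called (changes of -0.46 to 0.31). With the mean of its kept probes LAMP2 gave -0.06 (limma adjusted p = 0.735). GABARAPL1 rose 3.66-fold (9.94 and 10.07 in the treated arrays; 1.87 ± 0.13, limma adjusted p = 1.02e-05) and MAP1LC3B 2.36-fold (10.71 and 10.70; 1.24 ± 0.12, adjusted p = 7.99e-05). Over all genes 23.1% were called, 9.95% higher and 13.2% lower, beside 16.7% of the 36, or 6 genes, with a median change of 0.07. Of the 36, 11.1% rose, near the share of all genes, and 5.56% fell. ULK1 changed by 0.55 ± 0.14 (adjusted p = 0.0164), SQSTM1 by 0.42 ± 0.10 (adjusted p = 0.0143), LAMP2 by -0.39 ± 0.12 (adjusted p = 0.0429) and MITF by -0.69 ± 0.20 (adjusted p = 0.0334; detected in 1 of 2 treated arrays). The Y15 and combination groups were set against the same untreated arrays.

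The other genes did not pass the test in the combination. A second probe of GABARAPL2 was called higher (1.26, adjusted p over probes = 0.018), while the one used gave 0.30 ± 0.12. Early in the route, OPTN gave 0.01 ± 0.13, GABARAP 0.23 ± 0.27, ATG13 0.11 ± 0.22, ATG9A -0.13 ± 0.15, ATG14 0.41 ± 0.18, BECN1 0.09 ± 0.11, UVRAG 0.29 ± 0.14, WIPI1 0.13 ± 0.12 and WIPI2 0.14 ± 0.13. The conjugation genes ran from -0.35 (ATG5) to 0.26 (ATG16L1), with ATG3 at -0.01, ATG4A at -0.12, ATG7 at -0.13 and ATG12 at -0.01, and TFE3 gave -0.21. At the lysosomal membrane LAMP1 gave -0.31 ± 0.11 (limma adjusted p = 0.0624), MCOLN1 0.17 ± 0.15, ATP6V0D1 0.31 ± 0.13, ATP6V1H 0.33 ± 0.15, NPC1 -0.31 ± 0.15 and NPC2 0.12 ± 0.12. The enzymes ran from -0.36 (CTSB) to 0.47 (GLA, adjusted p = 0.0557), with CTSA at 0.06, CTSD at -0.23, CTSL at -0.14 and HEXA at 0.01. Only the calls of GABARAPL1 and MAP1LC3B held in every alternative run. Without untreated replicate 1 or 2, or without combination replicate 2, 2 genes were called, and 3 without combination replicate 1. Adjusted p without 1 of these 4 arrays was 0.0563 to 0.0882 for SQSTM1 and 0.0568 to 0.104 for ULK1. LAMP2 lost its call in 15 of 22 alternatives, and MITF without untreated replicate 1 or 2 (0.127 each) or combination replicate 2 (0.224).

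Adding TMZ to Y15 changed 0 of the 36 genes by limma, with 4 at an unadjusted p under 0.05, while 0.306% of all genes were called, 0.0875% higher and 0.219% lower. GABARAPL1 was 0.42 ± 0.13 higher in the combination than with Y15 alone (adjusted p = 0.204) and MAP1LC3B 0.27 ± 0.12 higher (adjusted p = 0.407), and in both genes the 2 groups of arrays did not overlap. The 95% intervals of the 36 differences lay within -0.61 and 0.94. Adding Y15 to TMZ, a comparison that shares no arrays with Y15 against untreated U87, called 7 genes. This was 19.4% of the 36, 16.7% higher and 2.78% lower, against 25.3% of all genes, 10.9% higher and 14.5% lower. The 5 genes called for Y15 alone were all among the 7, in the same direction, although both comparisons use 1 shared estimate of the spread. Changes were 1.76 ± 0.13 for GABARAPL1, 1.33 ± 0.12 for MAP1LC3B, 0.54 ± 0.10 for SQSTM1, 0.52 ± 0.14 for ULK1 and -0.88 ± 0.20 for MITF, detected in 1 of 2 combination arrays (limma adjusted p = 1.34e-05, 4.92e-05, 0.00387, 0.0191 and 0.0109). ATP6V1H (0.64 ± 0.15, adjusted p = 0.0102) and ATG16L1 (0.36 ± 0.11, adjusted p = 0.0365) were the other two. Of the 7, SQSTM1, MAP1LC3B and GABARAPL1 were called in every alternative run. The count fell to 3 without TMZ replicate 1 or combination replicate 2, and to 4 without TMZ replicate 2.

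The 6 tested cargo adaptor and Atg8 genes were set beside the 7 lysosomal enzymes, as medians of the log2 change. With Y15 in DBTRG the medians were 0.95 and 0.28, a difference of 0.67, with 4 and 1 genes called. With Y15 in U87 they were 0.30 and -0.03, a difference of 0.33, and with the combination 0.36 and -0.01, a difference of 0.37, with 3 and 0 genes called in each. The enzyme median of the combination was the value of CTSZ, which no U87 array detected. Without CTSZ, an alternative added after seeing the data, the enzyme medians were -0.04 with Y15 and -0.06 with the combination, and the differences 0.34 and 0.42. For TMZ alone the difference was 0.04.

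Array by array the difference between both medians, relative to the untreated mean of the same line, was 0.78 and 0.63 in the DBTRG arrays with Y15. It was 0.30 and 0.39 in the U87 arrays with Y15, 0.37 and 0.47 with the combination, and -0.04 and 0.08 with TMZ alone. Every Y15 array lay above every array without Y15 in this measure. The untreated arrays of a line mirror each other around 0 by construction, because their own mean is the reference. Among the arrays without Y15, only those with TMZ were set against other arrays. In the 6 adaptor and Atg8 genes the changes were uneven. In U87 with Y15 they ran from -0.11 (GABARAP) to 1.45 (GABARAPL1), and 3 of the 6 did not pass the test. These medians carry no test, since the genes were chosen by name with results of these arrays known.

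**Figure D4:**
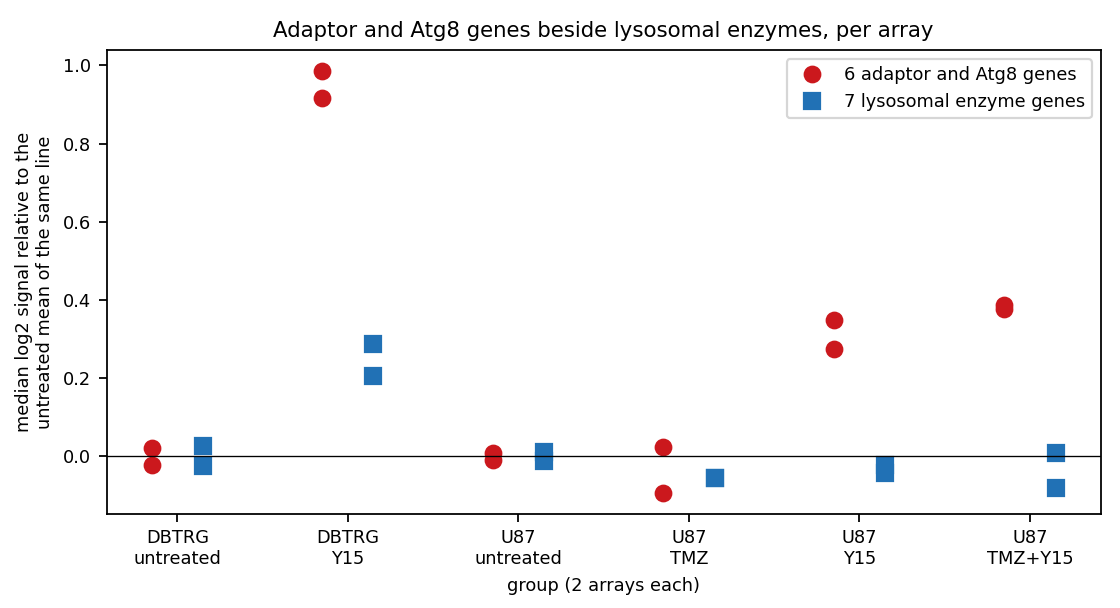
Median log2 signal, relative to the untreated mean of the same line (y axis), of the 6 cargo adaptor and Atg8 genes (red circles) and of the 7 lysosomal enzymes (blue squares) in each array, by group (x axis). In the Y15 arrays of DBTRG the medians are 0.99 and 0.92 for the first set and 0.21 and 0.29 for the second; in U87 with Y15 they are 0.27 and 0.35 against -0.02 and -0.04.

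The Y15 effect itself was compared between the lines as a difference of differences. It was larger in DBTRG for 9 of the 36 genes and for 0 smaller by limma, a share of 25%, where 20.0% of all genes were called, 12.4% in that direction and 7.61% in the other. The 9 genes were SQSTM1, OPTN, MAP1LC3B, ATG14, WIPI1, WIPI2, TFE3, ATP6V1H and NPC1. NPC1 had the widest gap, with 1.28 in DBTRG and -0.41 in U87, then WIPI1 (1.41 and 0.12) and SQSTM1 (1.62 and 0.35). The 2 effects were not shown to differ for GABARAPL1 (-0.27 ± 0.18, adjusted p = 0.318) or ULK1 (0.28 ± 0.19, adjusted p = 0.346). The 7 lysosomal enzymes held 0 of the 9, but their median difference of effects was 0.33 (CTSZ, undetected in U87, included). For the 6 adaptor and Atg8 genes the median was 0.41, so the 2 medians lay 0.08 apart, which was not tested.

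Untreated DBTRG and U87 cells already differed in most of these genes. Of the 36, 22 were lower and 7 higher in DBTRG than in U87 (80.6% called), where 59.3% of all genes were called, 32.5% lower and 26.8% higher. The median log2 difference was -0.66, beside -0.07 for all genes.

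CTSZ, a lysosomal cysteine carboxypeptidase, was the gene with the widest gap. It read 10.88 and 10.93 in untreated DBTRG and was detected in 0 of the 8 U87 arrays (4.42 and 4.32 untreated), at least 47.3-fold higher in DBTRG (limma adjusted p = 5.07e-11). NPC1 was 5.91-fold lower in DBTRG (8.58 and 8.93 against 11.13 and 11.51; -2.56 ± 0.15), WIPI1 4.40-fold lower (-2.14 ± 0.12) and ATG7 3.63-fold lower (7.18 and 7.05 against 8.98 and 8.97; -1.86 ± 0.16). Their adjusted p were 1.44e-07, 8.32e-08 and 2.35e-06, and the arrays of the lines did not overlap. NPC1 and WIPI1 were thus lower in untreated DBTRG and rose there with Y15, to 10.00 and 10.06 and to 8.28 and 8.49, which still lay under the untreated U87 arrays. Both comparisons use the same untreated DBTRG arrays, so an error in those arrays would move both results together.

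Both adaptors were lower in DBTRG, OPTN by 1.49 (SE 0.13) and SQSTM1 by 1.05 (SE 0.10). SQSTM1 with Y15 in DBTRG (13.21 and 13.23) then exceeded every U87 array, of which the highest read 13.08. The Atg8 genes were split, with GABARAPL1 (1.14 ± 0.13) and GABARAPL2 (0.43 ± 0.12) higher in DBTRG, GABARAP lower (-0.88 ± 0.27) and MAP1LC3B not called (-0.20 ± 0.12, limma adjusted p = 0.166). ATG14 (-1.43), ULK1 (-0.77), ATG13 (-0.69) and BECN1 (-0.38) were lower and UVRAG higher (1.16 ± 0.14). ATG5 was lower (-0.89), while ATG4A (0.70) and ATG12 (0.28) were higher.

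Lysosomal genes were mostly lower in DBTRG. TFE3 was lower by 1.37 (-1.37 ± 0.13), and MITF, detected in 0 of the 2 untreated DBTRG arrays, was at least 1.56-fold lower. Of the 7 lysosomal membrane genes 6 were lower, by between -0.50 (LAMP1) and -2.56 (NPC1), while LAMP2 did not pass (0.27 ± 0.12, limma adjusted p = 0.0821). CTSL (-1.79), CTSA (-1.07), CTSD (-1.05) and CTSB (-0.76) were lower, HEXA (0.74) was higher, and GLA did not pass the test (0.04 ± 0.16). The calls of GABARAP, GABARAPL2, ATG13, BECN1, ATG12 and HEXA were each lost without at least 1 of the arrays. GABARAP had an adjusted p of 0.137 without DBTRG replicate 2 and of 0.0662 and 0.0582 without U87 replicates 1 and 2. Without DBTRG replicate 1 the adjusted p was 0.0666 for GABARAPL2, 0.123 for ATG13 and 0.0713 for BECN1, and without U87 replicate 2 it was 0.0958, 0.191 and 0.0594, and 0.0502 for HEXA. With the mean of all kept probes ATP6V1H lost its call (-0.17, adjusted p = 0.325). ATG12 gave 0.0508 to 0.195 without any 1 of the 4 arrays compared or of the 6 treated U87 arrays.

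**Figure D5:**
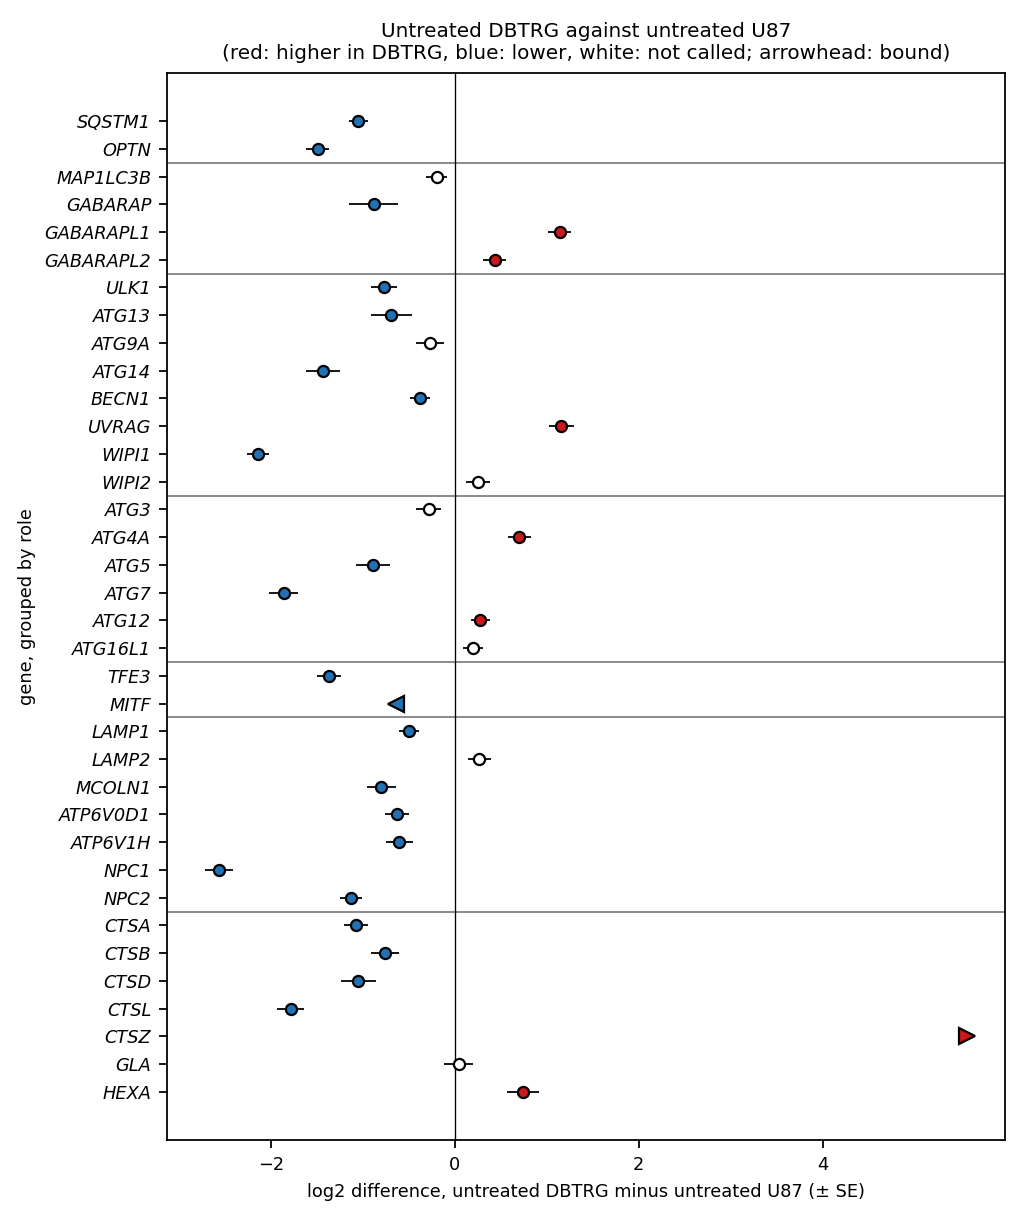
Log2 difference ± SE (x axis) between untreated DBTRG and untreated U87 for each of the 36 tested genes (y axis, grouped by role). Red points were called higher in DBTRG (7 genes), blue lower (22 genes) and white points were not called; arrowheads mark bounds for CTSZ (at least 47.3-fold higher) and MITF (at least 1.56-fold lower), each detected in 1 line only, and NPC1 lies at -2.56.

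Beyond the 38 genes, 124 further genes of the route were listed in 6 groups, of which 114 were tested. Of all genes, 19.4% rose and 18.4% fell in DBTRG with Y15, 8.61% and 13.4% in U87 with Y15, and 9.95% and 13.2% with the combination. Of 26 other genes of the autophagy machinery 8 rose and 2 fell in DBTRG with Y15. The WIPI relative WDR45 (1.12 ± 0.15, limma adjusted p = 0.000274) and the lipid kinase subunit NRBF2 (1.06 ± 0.15, adjusted p = 0.000414) led the rises, and the fusion SNARE gene STX17 (-0.71 ± 0.22) and the protease gene ATG4C (-0.51 ± 0.15) fell. In U87 with Y15, 2 rose, WDR45 (0.72) and the ULK1 complex subunit ATG101 (0.49), and 2 fell, the lipid kinase subunit PIK3R4 (-0.94 ± 0.16) and RUBCN, a brake on the BECN1 complex (-0.71). With the combination 4 rose, led by WDR45 (0.77) and ATG101 (0.59), and RUBCN fell (-0.69). In DBTRG with Y15 RUBCN rose (0.72 ± 0.22, adjusted p = 0.0245), and the Y15 effect differed between the lines by 1.43 ± 0.31 (adjusted p = 0.00968); it was singled out for DBTRG after its values had been seen.

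Of 9 other cargo receptors 4 rose and 0 fell in DBTRG, led by the receptor for the endoplasmic reticulum CCPG1 (1.41 ± 0.12, limma adjusted p = 1.65e-05) and the ubiquitin-binding TOLLIP (1.03 ± 0.13). In U87 with Y15 TOLLIP rose (0.46) and 2 fell, both mitochondrial receptors (BNIP3L at -0.535 and BNIP3 at -0.42), and with the combination CALCOCO2 (0.41) and FUNDC1 (0.40) rose and the same 2 receptors fell (-0.46 and -0.395). Of 19 genes that dock or control mTORC1, the kinase complex on the lysosome that restrains ULK1, 9 rose and 1 fell in DBTRG. The stress-induced inhibitors DDIT4 (2.72 ± 0.19) and SESN2 (2.40 ± 0.25) rose most, and RRAGA fell (-0.39). In U87 with Y15 4 rose and 2 fell, with SESN2 (1.59 ± 0.25, adjusted p = 0.00146) and FLCN (0.87 ± 0.13) up and RPTOR (-0.54) and MTOR (-0.51) down. With the combination 5 rose and 3 fell, among them SESN2 (2.04), FLCN (0.98), RPTOR (-0.95 ± 0.15) and MTOR (-0.68).

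The remaining 3 groups were lysosomal. Of 32 further enzymes and cofactors 3 rose and 3 fell in DBTRG (TPP1 0.43, GLB1 0.41; CTSC -0.82 ± 0.12 and ARSB -0.705), 1 rose and 1 fell in U87 with Y15 (LGMN 0.65, ARSB -0.755), and 1 rose and 3 fell with the combination (LGMN 0.755, ARSB -0.68, GM2A -0.49). Their median log2 change was -0.01, -0.02 and -0.10. Of 15 other V-ATPase subunits 4 rose and 0 fell in DBTRG, led by ATP6V1C1 (0.96 ± 0.11) and ATP6V1G1 (0.78 ± 0.10). In U87 with Y15 0 rose and 2 fell, ATP6V1A (-0.42) and ATP6V1C1 (-0.37), and with the combination 3 rose, led by ATP6V0B (0.61) and ATP6V1G1 (0.53), and ATP6AP2 fell (-0.39). Of 13 other membrane and sorting genes 1 rose (the cystine exporter CTNS, 0.86 ± 0.13) and 1 fell (GNPTAB, -0.79 ± 0.20) in DBTRG. In U87 with Y15 3 fell, led by the channel gene TPCN1 (-0.92 ± 0.15) and the amino acid sensor SLC38A9 (-0.60), and with the combination 1 rose and 2 fell. TMZ alone gave 0 calls by limma in each of these 6 groups of genes.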

How the data were processed

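The authors deposited a table of linear signal intensity for each probe and array, not normalized between arrays, with a detection p-value per probe, per the file headers. A second table the authors deposited holds log2 values with a median of 6.82 in each array and an unstated normalization, and it served as an alternative. The submitters' processing notes name GenomeStudio, with no version.

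The intensities went through limma 3.58.1 (R 4.3.3): normexp background correction from the detection p-values, an offset of 16, quantile normalization and log2. The offset understates changes of dim probes. Probes with a detection p-value under 0.01 in at least 2 arrays were kept (19354 of 47323). Of these, 4101 without a single gene symbol were left out, and the brightest probe stood for each of 11423 genes. Of 11 listed genes with more than 1 kept probe, 0 of the 16 other probes were called opposite to the gene. That count covers only comparisons in which the gene and the other probe were both called, so it misses other disagreements. Group means were fitted to all 12 arrays (6 residual and 4.46 prior degrees of freedom), and two-sided p-values were adjusted by Benjamini-Hochberg across all 11423 genes and called under 0.05. An "at least" fold sets the brighter group against the higher of the dim probe's value and the lowest detected signal. The fit was tested on simulated data. The precision is limited by 2 arrays a group. Alternatives changed the background, normalization, filter, probe choice, weights, samples and block. Every listed gene was to be named, and of the further genes the 2 largest called rises and falls per group of genes and treatment. The 38 genes, the other lists and the motifs were chosen with earlier results of these data known.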

Additional observations from a re-analysis of the deposited data

Results flagged for a closer look

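The Y15 effect differed between the lines, by an interaction contrast in limma, for 9 of the 36 genes, each time with the larger change in DBTRG. The log2 difference of effects (DBTRG minus U87) was 1.69 ± 0.22 for NPC1 (adjusted p = 0.000711), 1.29 ± 0.17 for WIPI1 (adjusted p = 0.000763), 1.27 ± 0.14 for SQSTM1 (adjusted p = 0.00039) and 0.99 ± 0.19 for WIPI2 (adjusted p = 0.00514). These 4 calls held in every alternative run. ATG14 gave 0.92 ± 0.26 (adjusted p = 0.0302), ATP6V1H 0.89 ± 0.21 (adjusted p = 0.0131; 0.39 and 0.211 with the mean of all kept probes) and OPTN 0.73 ± 0.18 (adjusted p = 0.016). TFE3 gave 0.66 ± 0.18 (adjusted p = 0.0297) and MAP1LC3B 0.55 ± 0.16 (adjusted p = 0.04). Leaving out 1 array ended the OPTN call without untreated U87 replicate 2 (adjusted p = 0.0675) or U87 Y15 replicate 1 (0.063). It ended the ATG14 call without replicate 1 of either DBTRG group, untreated U87 replicate 2 or either U87 Y15 array (0.0527 to 0.11). It ended the TFE3 call without any 1 of the 4 DBTRG arrays, untreated U87 replicate 2 or U87 Y15 replicate 1 (0.0504 to 0.111). It ended the MAP1LC3B call without replicate 2 of either DBTRG group or any 1 of the 8 U87 arrays (0.0567 to 0.136). Array weights ended the calls of ATG14 (0.0509), TFE3 (0.0569) and MAP1LC3B (0.0572), and the authors' deposited log2 table those of ATG14 (0.0544) and TFE3 (0.0891). Without U87 Y15 replicate 1 the count was 5. Groups of 2 arrays were not tested for outlying samples.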

How the results depend on the processing

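Each result was recomputed under 22 alternatives, 12 of which left out 1 array. Of the single values compared with the reported ones, 3052 kept direction and side of the threshold, 152 lost the call and 59 gained it. Another 72 turned sign while called in neither fit, and 10 turned sign and were called in 1 or both fits. With each array centred on the median of all probes 25 genes were called for Y15 in U87 (1 higher, 24 lower), 18 for TMZ added to Y15 (18 higher; median of all genes 0.43), 4 for Y15 added to TMZ and 31 for the difference between the lines (median of all genes 0.70). These counts were not set beside the share of all genes called on that scale, so they do not set the listed genes apart. For Y15 in U87 14 genes turned sign there. Of these, 7 were called: BECN1 (-0.65), UVRAG (-0.50), WIPI1 (-0.56), WIPI2 (-0.52), ATG16L1 (-0.49), ATP6V0D1 (-0.52) and ATP6V1H (-0.65). Between untreated lines GABARAPL2 (-0.0748) and ATG12 (-0.305) turned sign. CTSZ, undetected in U87, turned to 0.665 for Y15 when arrays were centred on their kept probes. For the combination 11 genes were called in the authors' log2 table and 10 with array weights. The adaptor and Atg8 median minus the enzyme median was 0.443 in DBTRG with no filter, 0.901 for genes detected in all 12 arrays and 0.793 with the mean of each gene's probes. It was 0.496 in U87 with Y15 under either centring, and 0.552 and 0.605 in the combination for genes detected in all arrays and for the mean of probes. Leaving out 1 array gave 0.597 to 0.863, 0.296 to 0.401 and 0.349 to 0.467 for these 3 differences. Counts of called genes without 1 array were 15 to 19 for Y15 in DBTRG, 4 to 6 for Y15 in U87, 2 to 8 for the combination, 3 to 8 for Y15 added to TMZ, 23 to 29 between untreated lines, 5 to 10 for the difference between lines and 0 for both other comparisons. The cause of these shifts was not tested.

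The labels do not say what a replicate number marks. Over 15 pairs of groups the deviations of same-numbered arrays correlated at -0.0547 to 0.111. Such values cannot exclude a culture, slide or day shared by some arrays. With the replicate block 19 genes were called for Y15 in DBTRG, 5 in U87 and 5 for the combination; it ended the calls of LAMP2 in the combination (adjusted p = 0.0545) and of MAP1LC3B between the lines (0.0508). With 2 arrays a group, MITF and HEXA with Y15 alone in U87 are known only as bounds. The same holds for CTSZ and MITF in untreated DBTRG against untreated U87.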
